A study of Mus musculus with 2 samples.

Results

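The 8 genes described here encode ligands and receptors of the epidermal growth factor receptor (EGFR) family. They are the EGFR ligands Ereg (epiregulin), Areg (amphiregulin), Hbegf (heparin-binding EGF-like growth factor) and Tgfa (transforming growth factor alpha), the neuregulin Nrg1, and the receptors Egfr, Erbb2 and Erbb3. They were picked by gene symbol, 8 of the 32285 genes listed for the libraries, with no threshold on a measured value. EGFR ligands are made as membrane-anchored precursors that proteases such as ADAM17 cut loose, and they act on the same cell or on neighbours. Neuregulin 1 binds ERBB3 or ERBB4, ERBB2 has no known ligand of its own and pairs with the other receptors, and ERBB3 signals mainly through such a partner. In the pancreas, EGFR signalling takes part in the change of acinar cells into duct-like cells and in the growth of ductal tumors.

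The samples were pancreatic tumors of male mice grown from KPC cells, a murine line of pancreatic cancer that was injected under the pancreatic capsule. The sample labelled FLOX came from a mouse group in which Slc16a1, the gene of the lactate transporter MCT1, is flanked by loxP sites. The sample labelled MCT1-KO came from mice that also carry Col1a2-CreERT2, a tamoxifen-inducible Cre recombinase under a collagen promoter, so that deletion was aimed at pancreatic stellate cells (PSCs) and other collagen-producing cells and not at the implanted tumor cells. Tamoxifen was injected before implantation, the study's scheme names corn oil as the other injection without saying which sample received which, and neither the mouse age at harvest nor the number of tumors per library is given in the labels. There was 1 library per group, so no difference was tested, and every interval below is a 95% interval that covers counting error only.

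Counts are UMIs, unique molecules per gene and cell barcode. The deposited tables held 177334432 UMIs for FLOX and 151118092 for MCT1-KO, and barcodes with at least 500 UMIs, 200 to 5000 genes and at most 8% mitochondrial UMIs left 8739 and 11689 cells with a median of 4069 and 3706 UMIs. The limit of 5000 genes alone left out 2060 barcodes of FLOX and 1231 of MCT1-KO, with 66484105 and 37348737 UMIs. Kept cells held 34.5% and 53.9% of the UMIs of their library, so the libraries were not cut equally. Only 59 kept barcodes occurred in both libraries. Cells were clustered with the 8 genes kept out of the variable genes, and clusters were named "X-like" from marker genes. The largest named class, ductal-like, held 2796 and 3911 cells. The name is weak, since in 4 of the 6 clusters the 10 leading genes include no marker of ducts. In PSC-like cells the targeted gene Slc16a1 had no lower level in the library labelled MCT1-KO. It had 25.6 and 35.5 CPM (counts per 1000000 UMIs of the class) on 57 and 112 UMIs, a ratio of 1.39 (1.00 to 1.95). Empty barcodes held 21.4 and 21.0 CPM of it, and its ratio was 1.22 in ductal-like and 1.42 in myeloid-like cells. The study itself reports lower MCT1 in PSCs of the knockout mice, by protein, mRNA, tissue staining and its own single-cell plots. These counts do not show the labelled deletion, and whether it took place was not tested further. All directions below are drawn against that library. Between the libraries, the summed level of 9 acinar markers was 52.4-fold higher in empty barcodes of the library labelled MCT1-KO (9 of 9 genes with UMIs in both), and that of 5 heat shock genes was 0.258 times that of FLOX. The part of either shift in the results below was not tested.

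Ereg (ENSMUSG00000029377) lies on chromosome 5 at 91074622 to 91093646 of the mouse build GRCm38, and Areg (ENSMUSG00000029378) follows on the same strand at 91139599 to 91148432, 45952 bases further on with 0 annotated genes between them. The positions come from GENCODE by gene identifier and cover whole genes, exons and introns together. The others lie apart, with Tgfa on chromosome 6, Egfr and Erbb2 on 11, Erbb3 on 10 and Hbegf and Nrg1 on other chromosomes. RefSeq promoter windows (250 bases before the start site and 50 after it, build GRCm38.p6) were at hand for 4 of the 8 genes, namely Areg, Tgfa, Egfr and Erbb2. The windows of Areg and Egfr are printed because Areg was the member that differed most between the libraries in ductal-like cells, whereas the receptor its protein binds differed little. Capitals mark, on either strand, the CRE TGACGTCA, the TATA motif TATAAA and the GC box GGGCGG.
Areg promoter, chr5:91139349-91139648, plus strand: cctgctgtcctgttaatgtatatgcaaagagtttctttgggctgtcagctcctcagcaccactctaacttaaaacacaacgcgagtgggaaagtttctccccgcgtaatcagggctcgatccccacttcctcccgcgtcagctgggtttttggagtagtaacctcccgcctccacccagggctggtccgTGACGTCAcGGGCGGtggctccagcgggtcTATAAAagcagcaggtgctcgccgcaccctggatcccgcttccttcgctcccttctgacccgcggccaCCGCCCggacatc
Egfr promoter, chr11:16751953-16752252, plus strand: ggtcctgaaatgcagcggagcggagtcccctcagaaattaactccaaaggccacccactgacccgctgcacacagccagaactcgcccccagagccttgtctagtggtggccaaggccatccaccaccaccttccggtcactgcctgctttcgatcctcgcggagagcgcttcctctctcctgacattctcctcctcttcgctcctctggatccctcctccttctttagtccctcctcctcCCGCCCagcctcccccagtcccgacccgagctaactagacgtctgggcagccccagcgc
The Areg window held 1 CRE starting 61 bases before the start site, 1 TATA motif starting 31 bases before it and 2 GC boxes. None of the motifs overlapped. The Egfr window held 1 GC box, the Tgfa window 2 and the Erbb2 window none, and none of these 3 held a CRE or a TATA motif. Of 32851 promoter windows of that length, 1.79% held the CRE, 13.6% the TATA motif and 35.7% the GC box. None of the 4 held the AP-1 motif TGANTCA (7.81% of windows) or the E-box CACGTG (7.15%). These are letter matches only.

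Ductal-like cells held at least 80.5% of the UMIs of 7 of the 8 members. Over both libraries they held 90.1% of Hbegf UMIs, 87.7% of Ereg, 84.0% of Erbb2, 83.4% of Areg, 82.2% of Egfr, 82.0% of Nrg1 and 80.5% of Tgfa, while they held 63.0% of all UMIs. For Erbb3, which had 93 UMIs in all kept cells, the share was 50.5% (39.97 to 61.1), and myeloid-like cells held 31.2% of its UMIs. As these are sums over unsorted cells, the shares depend on how many cells of each class were captured. They also depend on how classes are made: with a marker rule applied to each cell in place of clusters, ductal-like cells held 45.02% (Egfr) to 53.7% (Hbegf) for the same 7 members. That rule put 554 of the ductal-like cells with plasma-like and 114 with erythroid cells, and 695 neutrophil-like cells with mast/basophil-like cells. What part of the lower shares comes from such assignments was not tested.

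**Figure D1:**
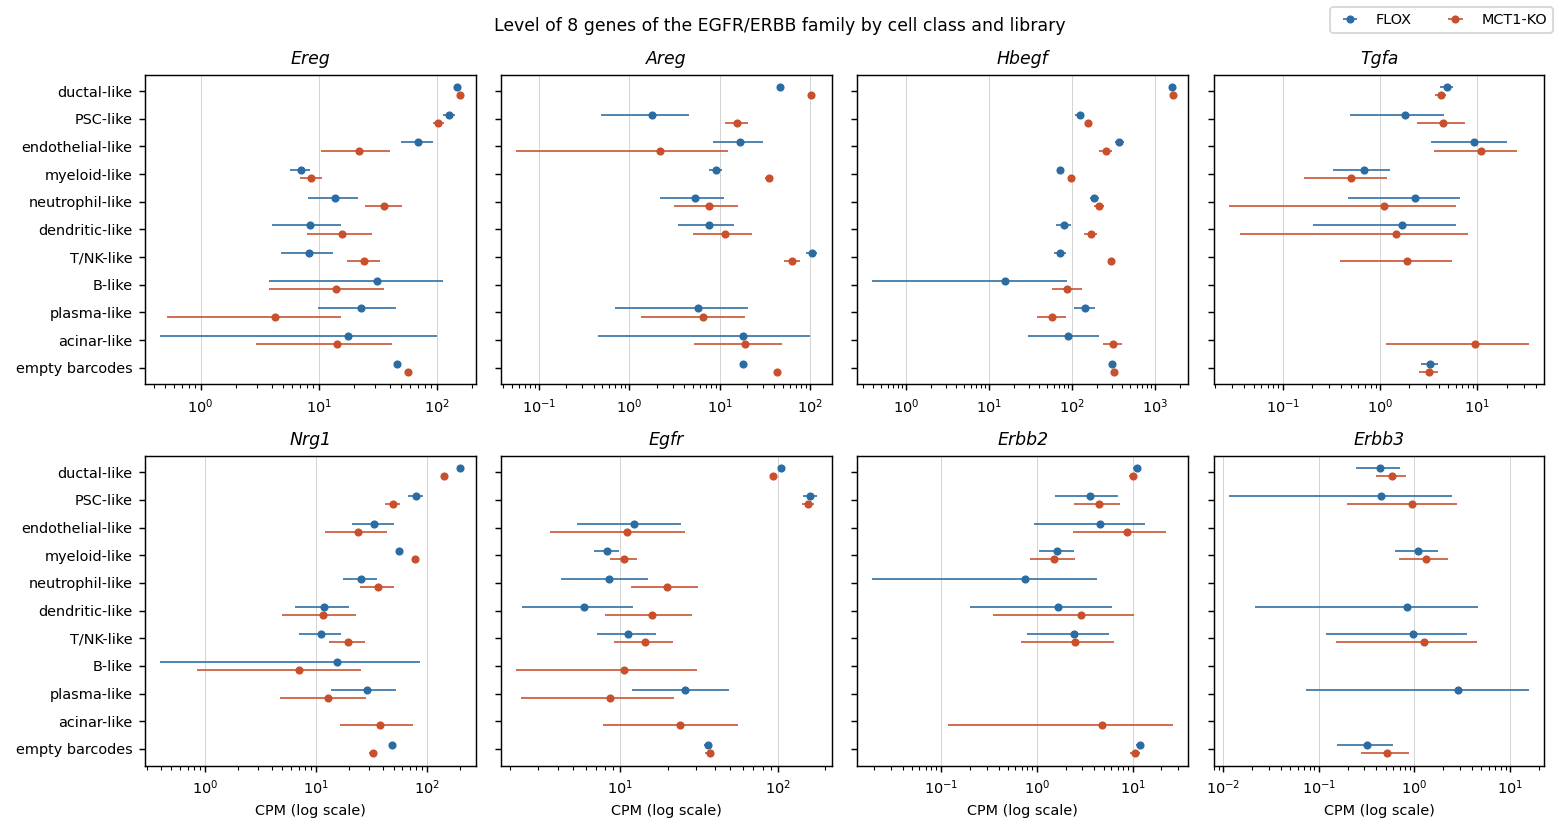
Level of each gene (CPM, log scale) by cell class in FLOX (blue) and MCT1-KO (red), with 95% Poisson intervals as bars; a class with 0 UMIs in a library has no point. Hbegf stands at 1576 and 1635 CPM in ductal-like cells, Areg is high in both ductal-like and T/NK-like cells, and Egfr is high in ductal-like and PSC-like cells.

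Among the EGFR ligands, Hbegf was at 1576 CPM (1563 to 1589) in FLOX and 1635 CPM (1624 to 1645) in the library labelled MCT1-KO in ductal-like cells. The next class, endothelial-like cells, had 369 and 253 CPM, and its levels were below those of ductal-like cells in both libraries. Ereg had 147 and 157 CPM in ductal-like cells, then 127 and 103 CPM in PSC-like cells and 68.9 and 22.0 CPM in endothelial-like cells. These 3 classes did not overlap one another, whereas the other 7 classes, at 7.69 to 22.9 CPM over both libraries, overlapped their neighbours in that order. Areg had 104 and 63.7 CPM in T/NK-like cells and 45.9 and 101 CPM in ductal-like cells. T/NK-like cells thus had the highest level in FLOX and ductal-like cells in MCT1-KO. Areg UMIs in myeloid-like cells, at 9.01 and 35.1 CPM, were below both classes. Tgfa was sparse, with 4.85 and 4.22 CPM in ductal-like cells and 9.19 and 10.99 CPM in endothelial-like cells, the last on 11 UMIs in all.

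Nrg1, the neuregulin, had 197 CPM in FLOX and 142 CPM in MCT1-KO in ductal-like cells. PSC-like cells had 79.4 and 49.1 CPM and myeloid-like cells 56.5 and 78.2 CPM, so these 2 classes overlapped. Among the receptors, Egfr had its highest level in PSC-like cells (160 and 156 CPM), above the 104 and 93.4 CPM of ductal-like cells in both libraries. No other named class exceeded 25.8 CPM of Egfr in either library. Erbb2 had 11.2 and 10.1 CPM in ductal-like cells. Erbb3 stayed at 0.433 and 0.579 CPM there, against 1.09 and 1.31 CPM in myeloid-like cells, values that rest on 15, 32, 16 and 13 UMIs.

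Empty barcodes of 10 to 100 UMIs show the free RNA that any cell can pick up. They held 304 and 323 CPM of Hbegf, 46.4 and 56.8 CPM of Ereg, 18.2 and 42.6 CPM of Areg, 48.0 and 32.4 CPM of Nrg1 and 35.8 and 37.0 CPM of Egfr. Erbb2 had 11.98 and 10.6 CPM there, no less than in ductal-like cells, so CPM alone cannot tell its ductal-like level from free RNA. Tgfa (3.24 and 3.16 CPM) and Erbb3 (0.321 and 0.514 CPM) in empty barcodes were also close to their ductal-like levels. Myeloid-like cells, exposed to the same free RNA, had 1.64 and 1.51 CPM of Erbb2. What part of its ductal-like level is free RNA was not tested. Hbegf levels of PSC-like, myeloid-like, neutrophil-like and dendritic-like cells were below those of empty barcodes, and were read as background. Here and below, this means only that no expression of their own is claimed, since free RNA is just a part of a cell's UMIs. In myeloid-like cells the ductal-like markers summed to 182 and 174 CPM, against 2082 and 2070 CPM in empty barcodes. Since 1 source of free RNA keeps its genes in 1 ratio, each gene was also set against 100 Hbegf UMIs of the same cells. Egfr stood at 11.8 and 11.5 UMIs per 100 Hbegf UMIs in empty barcodes, and at 130 and 99.8 in PSC-like cells. Ereg stood at 15.3 and 17.6 in empty barcodes and at 103 and 66.1 in PSC-like cells. Relative to Hbegf, both genes were thus far higher in PSC-like cells than in the free RNA of either library.

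For Nrg1 the ratio was 15.8 and 10.03 in empty barcodes, 80.1 and 81.7 in myeloid-like cells and 64.6 and 31.4 in PSC-like cells. For Areg it was 5.96 and 13.2 in empty barcodes, 12.8 and 36.7 in myeloid-like cells and 147 and 21.7 in T/NK-like cells. By this ratio all of these classes lay above the empty barcodes of their own library, although by CPM Areg in myeloid-like cells (9.01 and 35.1) was below empty barcodes (18.2 and 42.6) in both. Ereg in myeloid-like cells (9.96 and 9.04) and in T/NK-like cells (11.6 and 8.32) did not, and Areg in PSC-like cells (1.46 and 9.94) did not either. Since those levels were also below the CPM of empty barcodes, they were read as background, and so were those of Ereg in neutrophil-like cells (7.44 and 17.2). The ratio to Hbegf cannot separate expression from free RNA where Hbegf itself is high: in ductal-like cells Ereg (9.35 and 9.58), Areg (2.91 and 6.20), Nrg1 (12.5 and 8.70) and Egfr (6.63 and 5.71) were all below empty barcodes by this ratio, while their CPM were above those of empty barcodes in both libraries.

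**Figure D2:**
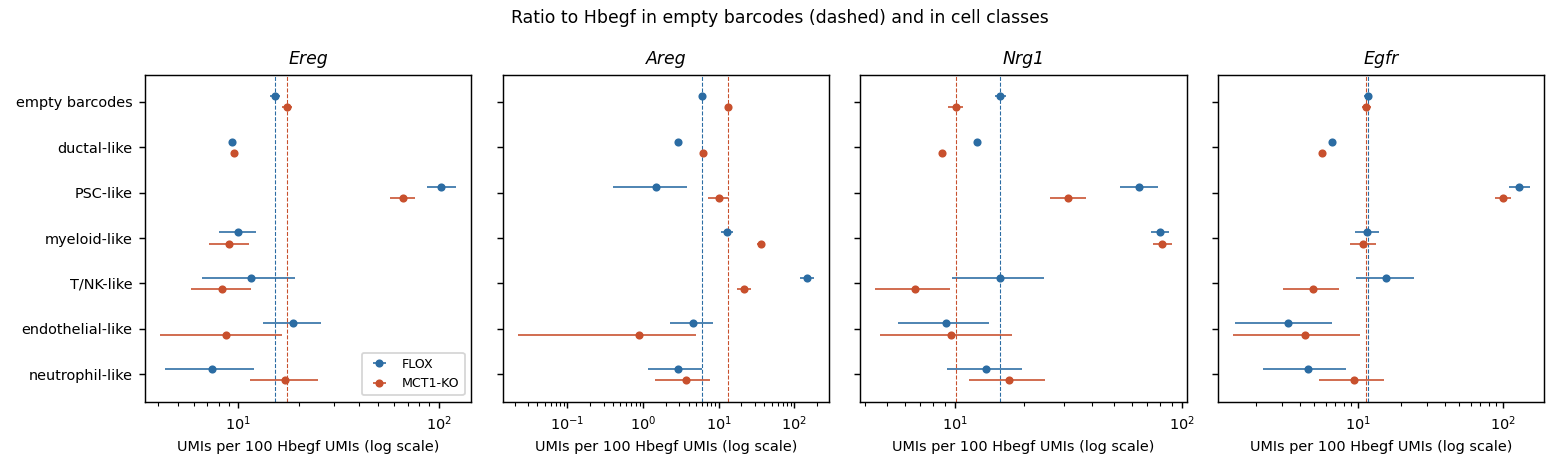
UMIs of Ereg, Areg, Nrg1 and Egfr per 100 Hbegf UMIs (log scale) in empty barcodes and 6 cell classes, FLOX in blue and MCT1-KO in red, with 95% intervals as bars and the values of the empty barcodes as dashed lines. PSC-like cells lie far right of the lines for Ereg and Egfr, myeloid-like cells for Nrg1, and T/NK-like cells of FLOX for Areg (147 against 5.96), while those of MCT1-KO lie nearer to their line (21.7 against 13.2).

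The comparison of the libraries asks whether the ligands and receptors of tumor and stromal cells differ between mice with and without the labelled deletion. In ductal-like cells Areg was the member that differed most. Its 1591 UMIs in FLOX gave 45.9 CPM (43.7 to 48.2) and its 5604 UMIs in the library labelled MCT1-KO gave 101 CPM (98.8 to 104). The level in MCT1-KO was 2.21 times that in FLOX (2.09 to 2.34). Nrg1 moved the other way, from 6820 UMIs and 197 CPM to 7860 UMIs and 142 CPM, a ratio of 0.722 (0.699 to 0.746). Ereg, the neighbour of Areg on chromosome 5, differed by a ratio of only 1.06 (1.03 to 1.10).

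Of the 7 members with at least 50 UMIs in ductal-like cells, 1 (Areg) was at least 2-fold higher in the library labelled MCT1-KO, where 1.81% of the 13408 genes with as many UMIs were, and 0 were at least 2-fold lower, where 3.62% were. The other ratios were 1.04 (1.03 to 1.05) for Hbegf, 0.894 (0.857 to 0.933) for Egfr, 0.898 (0.788 to 1.03) for Erbb2 and 0.869 (0.710 to 1.07) for Tgfa. The intervals of Erbb2 and Tgfa held 1. The median ratio of the 7 genes was 0.898, beside 1.01 over all 13408 genes. Erbb3 had too few UMIs for the count, with a ratio of 1.34 (0.703 to 2.66). The Areg ratio stayed above 1 but was no longer past 2-fold with no upper limit on genes (1.85), after subtraction of free RNA (1.92) or with the per-cell marker rule (1.99).

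The Areg difference was spread over cells. At 1000 UMIs per cell, 3.28% (2.63 to 4.05) of ductal-like cells in FLOX and 7.56% (6.74 to 8.46) in MCT1-KO held an Areg UMI, with 236 and 170 shallower cells left out. Without thinning the shares were 15.1% and 30.9% at median depths of 15098.5 and 15616 UMIs. The 5 cells with most Areg UMIs held 9.05% and 5.62% of the total, and the highest single cell held 33 and 105 UMIs. Nrg1 was found in 15.4% (13.98 to 16.8) and 10.8% (9.80 to 11.8) of thinned cells, and Ereg in 11.5% and 11.98%. For comparison, neutrophil-like cells, in which Areg was below the CPM of empty barcodes, held an Areg UMI in 0.142% and 0.683% after thinning, at median depths of 1471 and 1076 UMIs.

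For Areg and Nrg1, empty barcodes and barcodes left out for over 5000 genes differed in the same direction as ductal-like cells. Areg was 2.35-fold higher (2.12 to 2.60) in empty barcodes of the library labelled MCT1-KO and 1.65-fold higher (1.57 to 1.73) in barcodes with over 5000 genes, from 47.6 to 78.4 CPM. Nrg1 had ratios of 0.674 and 0.693 there. Hbegf and Ereg did not keep their direction in barcodes with over 5000 genes, with ratios of 0.887 (0.877 to 0.897) and 0.960 (0.924 to 0.997). In ductal-like cells the summed acinar markers were at 74.2 and 787 CPM (9 of 9 genes with UMIs in both libraries) and the 5 heat shock genes at 4384 and 1247 CPM. The 8 PSC markers summed to 2112 and 1346 CPM and the 11 myeloid markers to 620.0 and 335 CPM, all detected in both libraries, and the per-cell marker rule put 1183 of the ductal-like cells with PSC-like cells. Their part in the Areg and Nrg1 ratios was not tested.

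**Figure D3:**
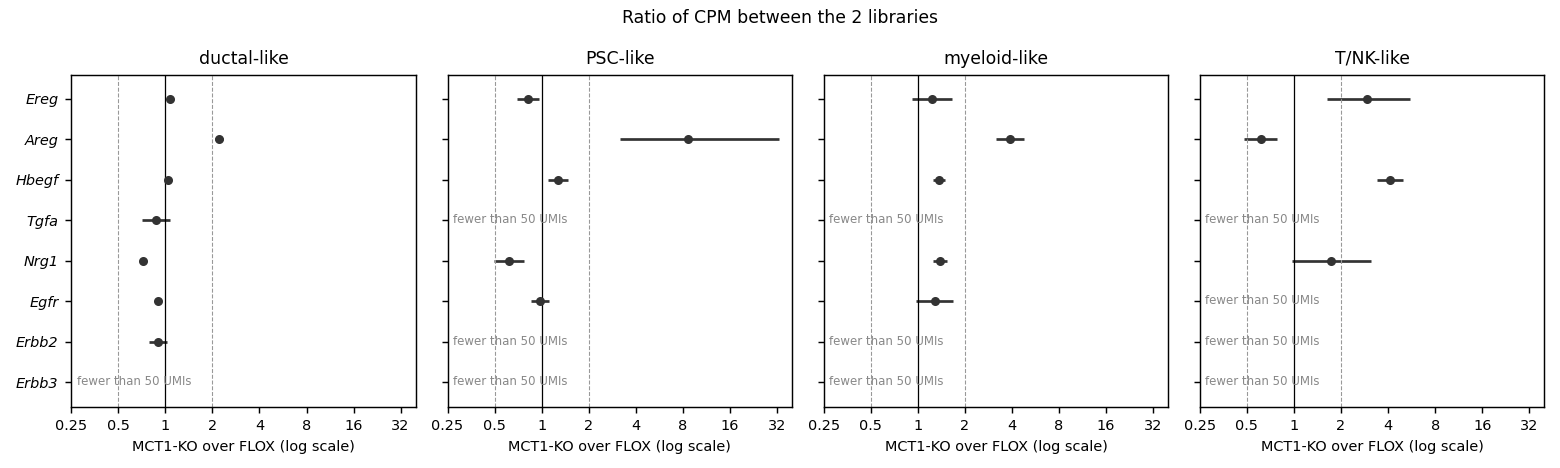
Ratio of CPM, MCT1-KO over FLOX (log scale), for each member with at least 50 UMIs in 4 classes, with 95% counting intervals as bars and dashed lines at 2-fold. Areg lies at 2.21, 8.66 and 3.90 in ductal-like, PSC-like and myeloid-like cells and at 0.612 in T/NK-like cells, and Nrg1 lies below 1 in ductal-like and PSC-like but above 1 in myeloid-like cells.

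Ductal-like clusters differed among themselves. Cluster 0 was led by Enpp2, cluster 6 by Ankmy1, cluster 7 by genes that include Krt19 and Msln, cluster 8 by genes of dividing cells, and cluster 14 by interferon-response genes such as Cxcl10. Cluster 19, of 103 cells, was led by Tff1, Gkn1 and Tff2, genes of gastric-type mucous epithelium, with Epcam. Erbb3 reached 45.8 CPM in cluster 19, on 28 of its 93 UMIs, while it was at 0.452 CPM or less in the other 5. Tgfa and Erbb2 each reached 19.6 CPM there on 12 UMIs each, and Ereg was at 13.1 CPM, far below the 71.6 to 210 CPM of the other 5 clusters.

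Areg was higher in the library labelled MCT1-KO in each of the 6 ductal-like clusters. It had 43.4 and 107 CPM in cluster 0, 46.3 and 132 CPM in cluster 6 and 60.4 and 99.6 CPM in cluster 7. Clusters 8 and 14 had 30.3 and 75.8 CPM and 34.0 and 64.9 CPM. The ratios in these 5 were 1.65 to 2.86 with intervals above 1, while that of cluster 19 was 1.53 (0.409 to 6.92). Nrg1 was lower in MCT1-KO in clusters 0, 6, 7 and 14, with ratios of 0.687, 0.631, 0.781 and 0.676. In the dividing cells of cluster 8 its ratio was 1.01 (0.887 to 1.15), with 128 and 130 CPM, and in cluster 19, on 14 and 35 UMIs, it was 1.91 (1.00 to 3.84).

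Hbegf and Ereg had no common direction over the ductal-like clusters. Hbegf had 1401 and 2573 CPM in cluster 6, a ratio of 1.84 (1.77 to 1.91), against 1427 and 1257 CPM in cluster 7, a ratio of 0.881 (0.861 to 0.901). Ereg had ratios of 1.37 (1.22 to 1.54) in cluster 6 and 0.817 (0.708 to 0.943) in the interferon-response cluster 14. The class ratios of 1.04 and 1.06 for these ligands are thus averages over clusters that lay on both sides of 1. Egfr was lower in clusters 7 and 8, at 67.8 and 65.5 CPM over both libraries, than in clusters 0, 6 and 14, at 107 to 117 CPM.

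**Figure D4:**
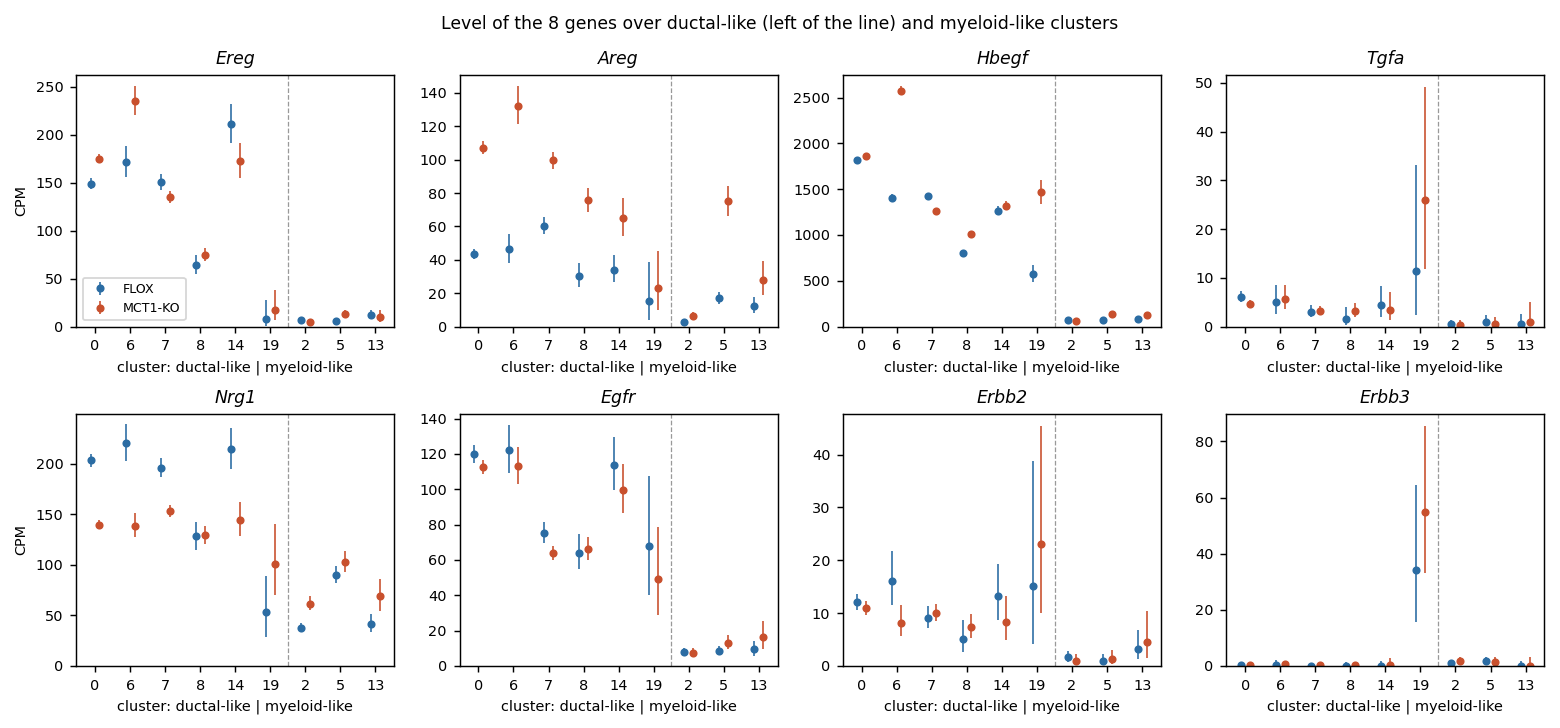
Level of each gene (CPM, linear scale) in the 6 ductal-like clusters and, right of the dashed line, the 3 myeloid-like clusters, FLOX in blue and MCT1-KO in red, with 95% Poisson intervals as bars. Areg is higher in MCT1-KO in all 6 ductal-like clusters, Erbb3 stands out in cluster 19, and Areg in myeloid-like cells is highest in cluster 5.

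Myeloid-like cells take in monocytes and macrophages. They had 9.01 CPM of Areg in FLOX (132 UMIs) and 35.1 CPM in the library labelled MCT1-KO (349 UMIs), a ratio of 3.90 (3.18 to 4.80). Of the 5 members with at least 50 UMIs there, 1 (Areg) was at least 2-fold higher, where 1.9% of 11122 genes were, and 0 were at least 2-fold lower, where 2.93% were. Nrg1 had 56.5 and 78.2 CPM, a ratio of 1.38 (1.25 to 1.53), opposite in direction to ductal-like cells. The ratios of Ereg (1.23, 0.914 to 1.66) and Egfr (1.28, 0.974 to 1.68) held 1 in their intervals. The median ratio of the 5, which was that of Hbegf, was 1.36, beside 0.997 over all genes tested. Hbegf was read as background there (70.6 and 95.8 CPM), and its ratio turned to 0.961 with no upper limit on genes and to 0.968 with likely doublets left out.

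The myeloid-like signal was uneven among clusters and cells. Cluster 5, led by Arg1 (arginase 1) with Il10, Tnf and Il1a, had 16.9 and 75.0 CPM of Areg, a ratio of 4.44 (3.48 to 5.73). Cluster 2, led by Mertk, Apoe and C1qc, had 2.81 and 6.396 CPM, and the dividing cells of cluster 13 had 12.1 and 27.8 CPM. Nrg1 was also higher in cluster 5 (95.7 CPM over both libraries) than in cluster 2 (47.4 CPM). Only 55 of 2211 and 84 of 1829 myeloid-like cells held an Areg UMI, and the 5 highest held 47.7% and 30.4% of the total. Without those 5 cells per library the ratio was 5.19, and after subtraction of free RNA it was 8.58. That subtraction took the free RNA share from acinar markers, which stood at 318 and 16646 CPM in empty barcodes. Ductal-like markers, at 2082 and 2070 CPM in empty barcodes, would give a smaller share, above all in FLOX. A subtraction with them was not run. In myeloid-like cells the ductal-like markers summed to 182 and 174 CPM, the PSC markers to 192 and 130 CPM, the acinar markers to 113 and 2246 CPM and the heat shock genes to 2968 and 519 CPM. Their part in the Areg ratio was not tested.

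PSC-like cells are the class at which the deletion was aimed, and they held the highest Egfr level. All 8 PSC markers were found in both libraries, but the per-cell marker rule called only 232 of these cells PSC-like and put 219 with mesothelial-like and 131 with Schwann-like cells. Egfr had 160 CPM in FLOX (356 UMIs) and 156 CPM in the library labelled MCT1-KO (492 UMIs), a ratio of 0.977 (0.851 to 1.12), and no difference was detectable at this depth. The main PSC-like cluster 11, led by Col1a2, had 167 and 160 CPM of Egfr, while cluster 23, of 39 cells led by the mural cell gene Rgs5 with Myh11, had 55.1 CPM over both libraries. At 1000 UMIs, 12.6% and 15.7% of PSC-like cells held an Egfr UMI, against 0.682% and 0.934% of myeloid-like cells. Ereg had a ratio of 0.814 (0.692 to 0.958) and Nrg1, with 177 and 155 UMIs, one of 0.619 (0.496 to 0.772). Both rest on few cells: 5 cells held 44.2% of Ereg UMIs and 55.9% of Nrg1 UMIs in FLOX, and without the 5 highest cells per library the ratios were 1.08 and 1.05.

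Areg had 4 UMIs in PSC-like cells of FLOX and 49 in those of the library labelled MCT1-KO, 1.79 and 15.5 CPM, a ratio of 8.66 (3.17 to 33.0). Of these 49 UMIs 5 cells held 75.5%. The ratio was 2.76 as the mean of the CPM of each cell and 1.59, no longer past 2-fold, with no upper limit on genes. In that last alternative the added barcodes were classed by the per-cell marker rule and not by clusters. Of the 5 members that reached 50 UMIs there, 1 (Areg) was past 2-fold higher, where 3.7% of 8574 genes were, and 0 were past 2-fold lower, where 3.49% were. Areg reached 50 UMIs only through the library in which it was higher, so nothing is read from that count. Relative to Hbegf these levels lay below those of empty barcodes in each library. Ductal-like markers summed to 337 and 470 CPM in PSC-like cells, myeloid-like markers to 1134 and 1363 CPM and acinar markers to 100.5 and 1904 CPM. The 8 PSC markers of the class itself summed to 25423.5 and 18759.8 CPM, and the 5 heat shock genes to 2377 and 926 CPM. Their part in the PSC-like ratios was not tested.

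T/NK-like cells went the other way for Areg. They had 104 CPM in FLOX (214 UMIs in 45 of 532 cells) and 63.7 CPM in the library labelled MCT1-KO (102 UMIs in 36 of 484 cells), a ratio of 0.612 (0.479 to 0.779). In each library 5 cells held much of this, 42.5% and 45.1% of the UMIs, and without them the ratio was 0.585. Both of their clusters had the lower level in MCT1-KO, with 98.7 and 71.1 CPM in cluster 9 and 119 and 23.9 CPM in cluster 21. At 1000 UMIs the shares of cells with an Areg UMI were 5.37% (3.57 to 7.71) and 3.16% (1.74 to 5.25), and their intervals overlapped. Amphiregulin is a known product of regulatory T cells. In each library 14 T/NK-like cells held a Foxp3 UMI and no UMI of Cd8a or Cd8b1. They had 327 and 209 CPM of Areg, which rest on 4 and 3 cells with an Areg UMI. Cells with Cd4 and none of Cd8a, Cd8b1 or Foxp3 had 153 and 58.4 CPM, and cells with Cd8a or Cd8b1 and no Cd4 had 57.8 and 43.3 CPM. Cells with an Ncr1 or Klrb1c UMI and none of these T cell genes held 0 and 1 Areg UMIs among 24 and 38 cells. The 101 and 136 cells with none of the genes used for this split had 273 and 123 CPM, on 62 and 37 UMIs, more than the 20 and 12 UMIs of the Foxp3 cells.

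Hbegf and Ereg in T/NK-like cells were higher in the library labelled MCT1-KO, with ratios of 4.13 (3.42 to 5.004) and 2.95 (1.63 to 5.56). These 2 of the 4 members with at least 50 UMIs were past 2-fold higher, where 1.9% of 7216 genes were, and 0 were past 2-fold lower, where 2.49% were. Ereg, with 17 and 39 UMIs, reached 50 only through the library in which it was higher, so nothing is read from that count. Hbegf had 71.0 and 293 CPM, below the 304 and 323 CPM of empty barcodes, and in MCT1-KO 5 cells held 64.6% of its 469 UMIs, up to 82 in 1 cell. The Hbegf ratio was 2.33 with likely doublets left out, and it was no longer past 2-fold without the 5 highest cells per library (1.83), as the mean of the CPM of each cell (1.64) or with no upper limit on genes (1.18). Ductal-like markers summed to 221 and 345 CPM in T/NK-like cells with 8 of 10 genes detected in both libraries. Myeloid markers summed to 1051 and 526 CPM there, acinar markers to 130 and 2621 CPM and heat shock genes to 2529 and 668 CPM. Their part in the T/NK-like ratios was not tested.

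In the other classes few members had 50 UMIs, and B-like cells held at most 25 UMIs of any member in a library. Outside ductal-like cells Tgfa, Erbb2 and Erbb3 were sparse in every named class, with 18, 22 and 4 UMIs in PSC-like cells and 3, 9 and 4 in T/NK-like cells. Endothelial-like cells had 68.9 and 22.0 CPM of Ereg (45 and 10 UMIs), a ratio of 0.319 (0.143 to 0.642), and 369 and 253 CPM of Hbegf, a ratio of 0.685 (0.544 to 0.859). Of these 2 members 1 (Ereg) was past 2-fold, where 6.18% of 3509 genes were in either direction. In MCT1-KO this Ereg level was below that of empty barcodes (56.8 CPM). Per 100 Hbegf UMIs, Ereg stood at 18.7 (13.3 to 25.8) and 8.70, against 15.3 and 17.6 in empty barcodes. In endothelial-like cells the ductal-like markers summed to 1402 and 1269 CPM, and the myeloid markers to 1563 and 633 CPM. The acinar markers summed to 59.7 and 1590 CPM there, and the heat shock genes to 2077 and 389 CPM. Their part in these ratios was not tested. Neutrophil-like cells had 13.8 and 36.1 CPM of Ereg (18 and 33 UMIs), a ratio of 2.62 (1.43 to 4.94), 1 of 3 members past 2-fold where 7.51% of 4913 genes were in either direction. In dendritic-like, acinar-like and plasma-like cells only Hbegf reached 50 UMIs, with ratios of 2.11, 3.45 and 0.404, past 2-fold where 7.09%, 15.1% and 12.5% of genes were in either direction. All 3 classes were below the Hbegf level of empty barcodes in both libraries, and in acinar-like cells, with 5 and 65 UMIs, Hbegf reached 50 only through the library in which it was higher. Nothing is read from the counts in these smaller classes.

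The wider pathway was read from 36 genes: other ligands, the receptor Erbb4, shedding proteases, adaptors and inhibitors, and targets of ERK signalling. In ductal-like cells 0 of the 32 with at least 50 UMIs were past 2-fold in either direction, where 5.44% of all genes were, and their median ratio was 0.942, beside 1.01 over all genes. Counting intervals lay above 1 for 9 of the 32 and below 1 for 14. At this depth they lay above 1 for 29.4% and below 1 for 27.1% of all 13408 genes. Among the 12 targets of ERK they lay above 1 for 7 and below 1 for 3. Myc, a growth-promoting transcription factor, had 139 and 244 CPM with a ratio of 1.75 (1.69 to 1.81), and Dusp5, a phosphatase of ERK, had 104 and 169 CPM with a ratio of 1.62 (1.56 to 1.68). Egr1 and Phlda1, early response genes, had ratios of 0.679 and 0.701. The targets therefore shared no direction. These examples were chosen after their values were seen.

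Of the negative regulators, Spry2 (Sprouty 2) had 56.3 and 94.1 CPM, a ratio of 1.67 (1.59 to 1.76), whereas Spry1 had 66.4 and 48.8 CPM, a ratio of 0.735 (0.695 to 0.777). Errfi1, an inhibitor of EGFR kinase activity, had 1198 and 1052 CPM, a ratio of 0.878. For 4 of 5 shedding genes the interval lay below 1, as for 27.1% of all genes, with Adam17 at 43.8 and 37.7 CPM and a ratio of 0.860 (0.804 to 0.919). Erbb4 had 0.751 and 0.633 CPM, and Nrg2, the other neuregulin above 50 UMIs beside Nrg4, had 5.20 and 3.98 CPM. Egf, Btc, Epgn and Nrg3 held 47, 31, 6 and 10 UMIs in ductal-like cells, too few for the count.

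In myeloid-like cells 1 of 29 pathway genes was past 2-fold, where 4.83% of all genes were. This was Nrg4, a ligand of ERBB4, with 3.55 and 10.5 CPM and a ratio of 2.95 (2.10 to 4.20). Adam17, which sheds amphiregulin, had 137 and 83.8 CPM there, a ratio of 0.614 (0.565 to 0.666), and Dusp6 had 71.6 and 38.6 CPM, a ratio of 0.538 (0.478 to 0.606). In PSC-like cells 2 of 28 were past 2-fold, where 7.18% of all genes were: Dusp5 with 34.1 and 79.0 CPM and a ratio of 2.32 (1.78 to 3.04), and Myc with 48.9 and 125 CPM and a ratio of 2.55 (2.06 to 3.18). In T/NK-like cells 2 of 23 were, where 4.39% of all genes were: Fosl1 (2.21) and Plaur (2.72). The count in PSC-like cells is near the share of all genes. Pathway genes in these classes were not set against empty barcodes or checked for a few high cells, so nothing is read from these counts. Dusp5 and Myc were also higher in MCT1-KO in ductal-like cells, and the part of free RNA was not tested.

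**Figure D5:**
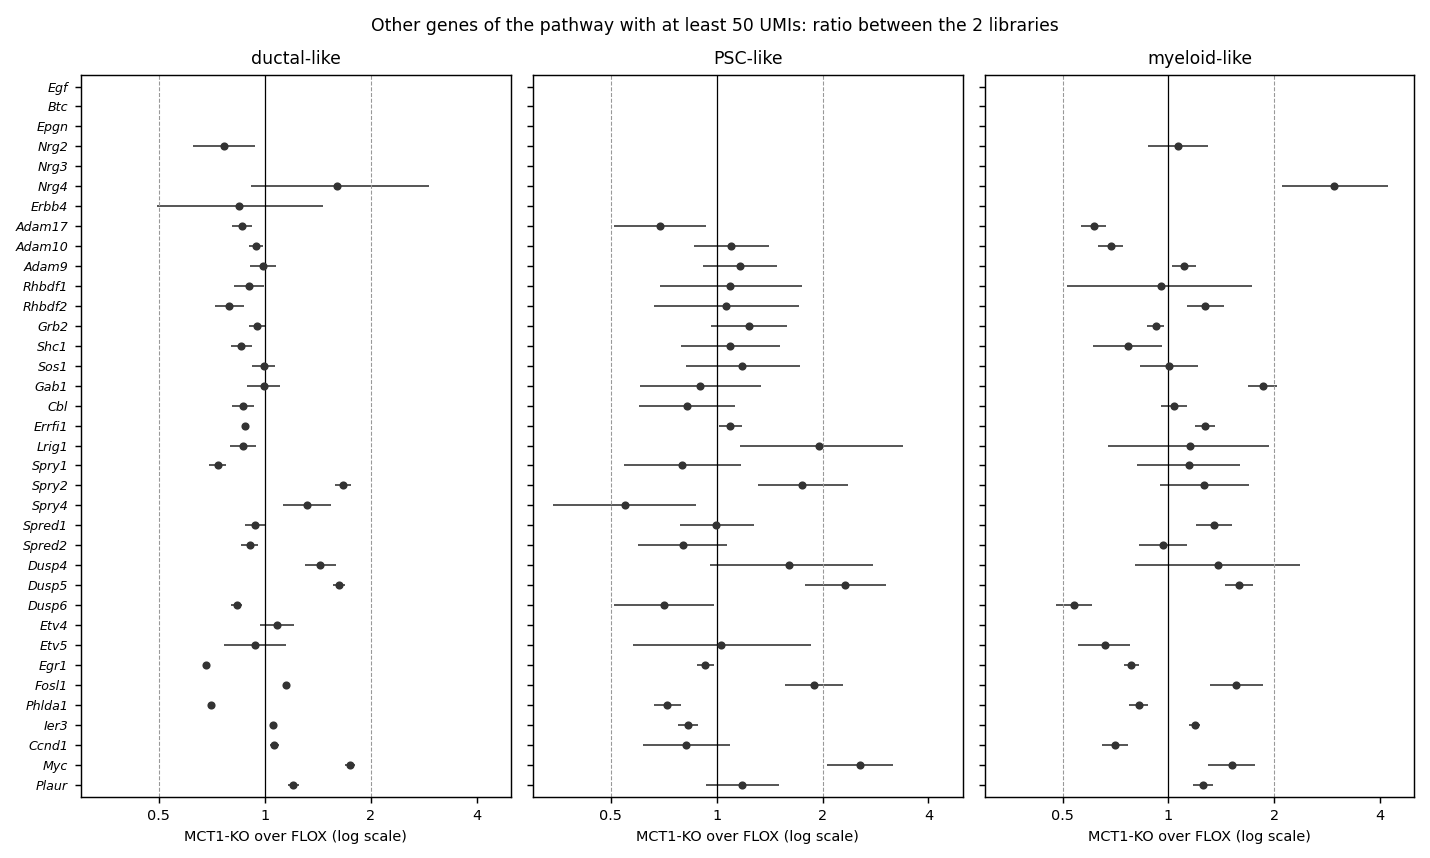
Ratio of CPM, MCT1-KO over FLOX (log scale), for the pathway genes with at least 50 UMIs in ductal-like, PSC-like and myeloid-like cells, with 95% counting intervals as bars and dashed lines at 2-fold. In ductal-like cells all points lie inside the 2-fold lines, with Myc, Spry2 and Dusp5 highest and Egr1 and Phlda1 lowest.

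Genes of like pattern were looked for over the 23 clusters of at least 50 cells, among 12699 genes with at least 200 UMIs, by Pearson correlation of log2(CPM + 1). Clusters share libraries and depth and are not independent samples. Ereg was closest to Antxr1 (r = 0.98), Slit2 and Zfpm2, and Egfr to Ddr2 (r = 0.98), a collagen receptor, Efna5 and Cald1. Hbegf was closest to Cp (r = 0.97), Cpe and Tnfrsf12a, Nrg1 to Fmn1 (r = 0.93), Fblim1 and Cd63, and Erbb2 to Frk (r = 0.92), Lrrc42 and Wwc1. Tgfa was closest to Stap2 (r = 0.94), Ano1 and Shroom3. Areg had the weakest best match, Slc16a11 (r = 0.86), then Tmem158 and S100a10, and its correlation with its neighbour Ereg was 0.42. Erbb3 had too few UMIs to be compared.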

How the data were processed

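Tumor cells were captured with the SeekOne MM kit per the labels (the methods name other kits). Reads were trimmed by the authors (Fastp) and UMIs counted with SeekOneTools, and the deposited values are raw UMI counts per gene and barcode. The processing notes of the submitters name Seurat 4.0.0 and the human build GRCh38, but the features are mouse Ensembl identifiers, so which build was used for counting is unknown. Positions come from GENCODE.

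Here, cells of both libraries were log-normalized (factor 10000), integrated and clustered in Seurat 5.3.0 (R 4.3.3, Matrix 1.6.5; 2000 variable genes without the members and pathway genes, 20 dimensions, resolution 0.8). A cluster was named with at least 3 class markers found in 10% of its cells, and stayed unnamed with few UMIs and no own marker among its 10 leading genes, or with markers of another class over 50% as high. These limits were set after seeing the clusters. Unnamed clusters held 1889 cells of FLOX (21.6%) and 3728 of MCT1-KO (31.9%) and were left out of the comparisons. Doublets were not removed. The 8% of cells with the highest doublet score were left out as an alternative.

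UMIs were summed per class and library (scipy 1.17.1, numpy 2.4.6, matplotlib 3.10.9, pandas 2.3.3 and scikit-learn 1.9.0 in python 3.11.15). Intervals of 95% are Garwood's for CPM, Clopper-Pearson's for shares of cells and conditional exact for ratios. Molecules are counted once, but intervals cover counting error only. With 1 library per group no test was run. The rule for named genes took all 8 members in every class, and those under 50 UMIs in a class are given by counts or in the plots. Pathway genes were named where past 2-fold in ductal-like or myeloid-like cells, and others after their values were seen. The calculation of the interval was checked on simulated Poisson counts, where it held the true ratio for 95.3% of 13408 genes. These counts follow the model that the interval assumes and have no spread between cells or libraries. The check therefore says nothing about such spread in these data. Members and lists were chosen with earlier results of these data known.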

Additional observations from a re-analysis of the deposited data

Results flagged for a closer look

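Several members had counting intervals on opposite sides of 1 in different cell classes, as ratios of the library labelled MCT1-KO over FLOX. How many of all genes do so was not counted, so nothing is read from the number of such members. In ductal-like cells alone the interval lay above 1 for 29.4% and below 1 for 27.1% of 13408 genes. The differences between classes were not tested, since each rests on 1 library per group. Areg was higher in ductal-like (2.21), myeloid-like (3.90) and PSC-like cells (8.66) and lower in T/NK-like cells (0.612). The PSC-like levels were read as background, and their ratio was 1.59 with no upper limit on genes. Nrg1 was lower in ductal-like (0.722) and PSC-like cells (0.619) and higher in myeloid-like cells (1.38). Its PSC-like ratio turned to 1.05 without the 5 highest cells per library. Ereg was higher in ductal-like (1.06), neutrophil-like (2.62) and T/NK-like cells (2.95) and lower in PSC-like (0.814) and endothelial-like cells (0.319). Its levels in neutrophil-like and T/NK-like cells were read as background. Per 100 Hbegf UMIs, Ereg in endothelial-like cells did not stand clear of empty barcodes either. It was at 18.7 (13.3 to 25.8) against 15.3 in FLOX and at 8.70 against 17.6 in MCT1-KO. The Ereg ratio between the libraries turned to 0.907 in ductal-like cells after subtraction of free RNA. In PSC-like cells it turned to 1.08 without the 5 highest cells per library and to 1.19 with the per-cell marker rule. Hbegf was higher in ductal-like (1.04), PSC-like (1.27), myeloid-like (1.36), dendritic-like (2.11), acinar-like (3.45) and T/NK-like cells (4.13) and lower in endothelial-like (0.685) and plasma-like cells (0.404). In the other classes listed, Hbegf levels were below those of empty barcodes, except in endothelial-like cells of FLOX. Its ratio turned in ductal-like cells to 0.991 with the per-cell marker rule and 0.866 after subtraction of free RNA, and in myeloid-like cells to 0.961 with no upper limit on genes and 0.968 with likely doublets left out.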

How the results depend on the processing

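No paired analysis was possible because each group has 1 library. Of 183 ratios recomputed under the alternatives, 139 stayed within their counting interval, 36 left it without a change of direction being called, and 8 whose interval had excluded 1 came to lie on its other side. Among ratios whose interval held 1, that of Tgfa in ductal-like cells crossed 1 in 1 of 11 alternatives and that of Egfr in PSC-like cells in 3 of 11. The cause was not tested. The Areg ratio in ductal-like cells was above 1 in all 11 alternatives and past 2-fold in 8 of them. Alternatives for single classes other than ductal-like were added after seeing the data. No value could be had for Areg in PSC-like cells without the 5 highest cells or with free RNA subtracted.

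After subtraction of free RNA, its share taken from acinar genes, the ductal-like ratios turned to 0.907 for Ereg and 0.866 for Hbegf and were 1.92 for Areg, 0.610 for Nrg1 and 0.767 for Egfr. The Areg ratio was 8.58 in myeloid-like and 0.414 in T/NK-like cells, and PSC-like cells had 0.666 for Ereg and 0.790 for Egfr. Acinar markers stood at 74.2 and 787 CPM in ductal-like cells, against 318 and 16646 CPM in empty barcodes. The share taken off was thus larger in FLOX, and these ratios depend on it. No other marker set was used for the subtraction. Without integration the ductal-like ratios were 1.11 for Ereg, 2.37 for Areg, 1.07 for Hbegf and 0.747 for Nrg1, and Hbegf had 1.20 in myeloid-like and 2.90 in T/NK-like cells. With no upper limit on genes, Ereg had 1.12, Areg 1.85 and Nrg1 0.693 in ductal-like cells, Areg had 3.13 in myeloid-like and 1.59 in PSC-like cells, Egfr had 1.14 in PSC-like cells, and Hbegf turned to 0.961 in myeloid-like cells and had 1.18 in T/NK-like cells. With the per-cell marker rule, Areg had 1.99 and Hbegf turned to 0.991 in ductal-like cells, Areg had 0.866 and Hbegf 3.09 in T/NK-like cells, and Ereg turned to 1.19 in PSC-like cells. With likely doublets left out, Ereg had 1.10 in ductal-like cells and Hbegf 2.33 in T/NK-like cells and, turned, 0.968 in myeloid-like cells. With the mean of the CPM of each cell, Hbegf had 1.13, Tgfa 1.08, Nrg1 0.684 and Egfr 0.933 in ductal-like cells, Areg had 2.76 in PSC-like cells, and Hbegf had 1.07 in myeloid-like and 1.64 in T/NK-like cells. With at most 5% mitochondrial UMIs Areg had 2.37 in ductal-like cells. Without the 5 cells per library with most UMIs of the gene, Areg had 5.19 and Hbegf 1.24 in myeloid-like cells, Hbegf had 1.83 in T/NK-like cells, and PSC-like cells turned to 1.05 for Nrg1 and 1.08 for Ereg.

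The share of UMIs held by ductal-like cells depended most on how classes were made. With the per-cell marker rule it was 48.6% for Ereg, 48.0% for Areg, 53.7% for Hbegf, 48.6% for Tgfa, 46.8% for Nrg1, 45.02% for Egfr, 51.2% for Erbb2 and 38.7% for Erbb3. With no upper limit on genes it was 74.7%, 77.2%, 77.4%, 72.8%, 70.1%, 70.7% and 72.2% for the first 7 of these. There the added barcodes were classed by the per-cell marker rule. Without integration it was 85.5% for Ereg, 81.8% for Areg, 88.4% for Hbegf, 79.4% for Nrg1, 80.02% for Egfr and 81.3% for Erbb2. With doublets left out it was 90.1% for Ereg, 85.7% for Areg, 92.9% for Hbegf, 84.0% for Nrg1 and 84.1% for Egfr. A minimum of 1000 UMIs gave 88.6% for Ereg, 90.9% for Hbegf, 83.0% for Nrg1 and 83.2% for Egfr. At most 5% mitochondrial UMIs gave 89.9% for Hbegf and 81.4% for Nrg1, and resolution 0.4 gave 90.5% for Hbegf, 82.7% for Nrg1 and 20.4% for Erbb3. At a limit of 1.5-fold, 5 of 39 members and pathway genes were past it in ductal-like cells (14.7% of all genes), 9 of 34 in myeloid-like cells (16%), 9 of 33 in PSC-like cells (21.1%) and 10 of 27 in T/NK-like cells (16.8%). With at least 200 UMIs, 1 of 27 was past 2-fold in myeloid-like cells (3.07% of all genes) and 1 of 11 in T/NK-like cells (2.63%).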
